A study of Mus musculus with 27 samples.

Results

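Per1-/- cultures on day 4 of neuronal reprogramming were compared with Per1-/- cultures on day 2. The 6 libraries were chosen by their genotype and day labels alone, 3 for each day, out of 27 bulk RNA-seq libraries. The series held mouse embryonic fibroblasts (MEFs) of 3 genotypes, WT, Per1-/- and Per2-/-, on days 0, 2 and 4, with 3 replicates for each genotype and day. In every group, WT included, the fibroblasts had received lentiviruses for reprogramming factors, among them Brn2 (the product of Pou3f2) and Myt1l, under a doxycycline-inducible promoter together with the transactivator M2rtTA, and doxycycline and a neuronal medium were given from day 0 on. The question was how the transcriptome moved on between the early and the later day of conversion into induced neurons (iNs). The Per1-/- fibroblasts came from embryos of the Per1 tm1Drw line, without head and heart, and several embryos were pooled in a dish, so a library did not stand for 1 animal. The cells were not sorted, and every library was RNA of a whole culture.

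PER1 is a repressor of the circadian clock, which with PER2 and the CRY proteins inhibits the transcription factors CLOCK and BMAL1. BRN2 is a POU domain factor that activates neuronal genes, and MYT1L is a zinc finger factor that represses genes of other lineages. Cells that convert leave the cell cycle and switch on neuronal genes, whereas cells that do not convert remain as fibroblasts in the same dish.

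Values are FPKM as deposited, the fragments of a gene scaled by its length and by the depth of the library, and are listed in the order replicate 1, 2 and 3. The 6 libraries held 15815000 to 21565400 fragments on genes, and all values of the 6 libraries corresponded to whole fragments within 0.01 of a fragment. Changes are log2 fold changes of day 4 over day 2 on the log2(FPKM + 0.1) scale with their standard errors, and the p-values were from limma with Benjamini-Hochberg adjustment over 14932 tested genes. Calls needed both a change of 0.58 or more in size on the log2 scale and an adjusted p not above 0.05. The fit took 1 spread per gene from all 27 libraries in their 9 groups. The p-values therefore measure the spread between biological replicates across the series, not that of the 6 libraries alone.

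The label named the cells induced neurons, and the libraries held both fibroblast and neuronal transcripts. Col1a1, the fibroblast collagen chain, was at 1656, 1547 and 1650.4 FPKM on day 2 and 1491, 2107 and 1858 FPKM on day 4. Tubb3, which encodes neuronal βIII-tubulin, was at 93.0, 119.8 and 95.3 FPKM on day 2 and 112, 134 and 102 FPKM on day 4, and the day 2 and day 4 ranges of both genes overlapped. Per1 was at 4.49, 4.51 and 3.62 FPKM on day 2 and 4.54, 4.59 and 4.23 FPKM on day 4 in the Per1-/- libraries, and at 4.76, 4.81 and 4.83 FPKM on day 2 and 5.62, 4.95 and 4.92 FPKM on day 4 in WT libraries. Every Per1-/- library lay below every WT library of the same day, by a small margin. FPKM of the whole gene can include fragments from outside the altered segment, so these levels were no check of the allele. Per2 was at 2.77, 2.97 and 2.75 FPKM on day 2 and 2.64, 2.54 and 3.30 FPKM on day 4 in the libraries labelled Per2-/-, and at 1.55, 1.78 and 1.39 and 1.60, 1.97 and 1.61 FPKM in WT libraries. On these 2 days every library labelled Per2-/- had more Per2 transcript than any WT library. The limit of whole-gene FPKM holds for Per2 as well, so these levels were no check of that allele either. The paper reports western blots that verified the loss of PER2 protein in its Per2-/- MEFs. These libraries are named by their label here.

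Of the 14932 tested genes, 206 (1.38%) were higher and 158 (1.06%) lower on day 4 than on day 2. The genes that rose had a median level of 1.40 FPKM on day 2 and 3.70 FPKM on day 4, and 87 of the 206 had a mean of at most 1 FPKM on day 2. The genes that fell had a median level of 6.22 FPKM on day 2 and 3.30 FPKM on day 4. A change of at least 2-fold was reached by 140 of the genes that rose and 41 of those that fell, and one of more than 4-fold by 30 and 3. The days did not overlap in 204 of the 206 and 156 of the 158, against 14.1% and 15.7% of all tested genes that were higher or lower without overlap. The median change of all tested genes was -0.01.

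Replicates of the same number deviated together between the days, and with the replicate number as a block 411 genes (2.75%) were higher and 319 (2.14%) lower. Rescaling the FPKM of each library to a common sum shifted the median of all genes to -0.13 and gave 155 genes higher and 376 lower. The locus Gm23935, a predicted miRNA gene, had 85895 FPKM in day 4 replicate 2 and enters that sum, and in a rescaling without it, added after seeing the data, the counts were 195 and 192. With no minimum size, 294 genes were higher and 304 lower, so that many small changes passed the test alone. Atp6v1b2, a subunit of the lysosomal proton pump, changed by 0.50 ± 0.07 (adjusted p = 0.000216), and Cald1, the actin regulator caldesmon, by -0.51 ± 0.08 (adjusted p = 0.00197), both under the size of a call. The counts also depended on single libraries, as fits that left out 1 of the 6 libraries in turn (leave-out fits) gave fewer calls in most cases. Without day 2 replicate 2, 84 genes were higher and 41 lower. Without day 2 replicate 3, the counts were 128 and 67, and without day 4 replicate 1, 2 or 3 they were 112 and 80, 128 and 74, and 130 and 84. Without day 2 replicate 1 they were 175 and 178.

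Of the transduced factors, Pou3f2 was strongly expressed on both days, whereas Myt1l stayed near 1 FPKM or below. Pou3f2 was at 309, 299 and 249.9 FPKM on day 2 and 177, 154 and 123 FPKM on day 4, and the 3 day 4 values were below the 3 day 2 values (log2 fold change -0.92 ± 0.32, adjusted p = 0.102, and 0.0143 with the replicate block). Myt1l was at 0.496, 0.777 and 0.757 FPKM on day 2 and 0.967, 1.07 and 1.04 FPKM on day 4, also without overlap (0.55 ± 0.31, adjusted p = 0.334). Neither gene passed the test, and Pou3f2 passed it with the block and in a fit of the 6 libraries alone (adjusted p = 0.0393). Viral and endogenous transcripts were counted together, and on day 0 the means were 0.0210 and 0.00617 FPKM.

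Part of the neuronal cytoskeleton genes rose. Of the 35 genes on this list, all tested, 11 were called higher and none lower (7 higher without day 2 replicate 3 or without day 4 replicate 2), and the median change of the list was 0.25 beside -0.01 for all tested genes. Its summed level overlapped between the days, with 877 to 1070 FPKM on day 2 and 930 to 1160 FPKM on day 4. Stmn4, a stathmin that binds tubulin in neurons, was counted with 1, 0 and 4 fragments on day 2 and 46, 132 and 113 fragments on day 4. Its levels were 0.0224, 0 and 0.105 FPKM and then 1.17, 4.22 and 2.59 FPKM, a log2 fold change of 4.17 ± 0.77 (adjusted p = 0.00403). Stmn3, of the same family, was at 0.755, 0.769 and 0.575 FPKM on day 2 and 3.29, 5.99 and 4.37 FPKM on day 4 (2.51 ± 0.27, adjusted p = 2.17e-05). Both genes were under 1 FPKM in all day 2 libraries, and every day 4 library was above every day 2 library.

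Ina, which encodes the neuronal intermediate filament α-internexin, was at 0.649, 1.43 and 0.435 FPKM on day 2 and 4.17, 7.56 and 4.44 FPKM on day 4 (2.64 ± 0.39, adjusted p = 0.000732). Mapt, the gene of the axonal protein tau, was at 0.239, 0.307 and 0.294 FPKM on day 2 and 1.63, 2.25 and 1.26 FPKM on day 4 (2.22 ± 0.29, adjusted p = 0.000216). Mapk8ip2, a scaffold of JNK signaling, rose 4.61-fold on the FPKM + 0.1 scale and Nefh, the heavy neurofilament chain, 3.42-fold. None of these genes had overlapping days. Dcx, a microtubule protein of migrating young neurons, was at 1.34, 1.80 and 1.36 FPKM on day 2 and 2.71, 4.74 and 3.68 FPKM on day 4 (1.23 ± 0.30, adjusted p = 0.0270). Stmn4, Stmn3, Ina, Mapt and Mapk8ip2 remained called without any one of the 6 libraries. Dcx remained called only without day 4 replicate 1, with an adjusted p of up to 0.117 otherwise, and Nefh only without day 2 replicate 1 or day 4 replicate 3, with up to 0.164. Other cytoskeletal genes did not pass the test. Map2, the dendritic microtubule protein, was at 5.79, 5.39 and 4.05 FPKM on day 2 and 8.64, 10.4 and 8.53 FPKM on day 4 (0.85 ± 0.35, adjusted p = 0.171), and Stmn2 at 1.49, 5.58 and 3.26 FPKM on day 2 and 3.49, 7.50 and 5.47 FPKM on day 4, with a log2 fold change of 0.78 ± 0.52 (adjusted p = 0.432). Map2 was higher in each day 4 library without passing the test, which it passed with a pseudocount of 1, with voom and in a fit of the 6 libraries alone, whereas the days overlapped for Stmn2.

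Regulators of neuronal splicing and RNA stability rose in part, with 4 of 18 tested genes called higher, none lower and a list median of 0.15. Summed over the list, the days overlapped, at 169 to 190 FPKM on day 2 and 171 to 187 FPKM on day 4. Elavl3, a neuronal RNA-binding protein of the Hu family, was at 0.759, 1.52 and 0.737 FPKM on day 2 and 5.87, 8.14 and 5.17 FPKM on day 4. It rose 6.06-fold (log2 fold change 2.60 ± 0.27, adjusted p = 2.15e-05), and its lowest day 4 value was more than 3-fold above its highest day 2 value. Srrm4, an activator of neuronal microexons, was at 0.242, 0.717 and 0.446 FPKM on day 2 and 1.18, 2.83 and 3.08 FPKM on day 4 (2.09 ± 0.35, adjusted p = 0.00197). Celf3 rose by 1.82 ± 0.22 (adjusted p = 9.99e-05) and Elavl4 by 1.5 ± 0.36 (adjusted p = 0.0208). The call of Elavl4 was lost without day 2 replicate 1, day 2 replicate 3 or day 4 replicate 2, with an adjusted p of up to 0.0898, and the other 3 were kept in all 6 such fits.

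Secretory granule genes had a high list median. Of 27 listed genes for granins and prohormone processing, 19 were tested, of which 6 rose and none fell, with a median change of 1.04. The summed level changed little, from 244 to 253 FPKM on day 2 to 254 to 287 FPKM on day 4. The median was 0.54 with a pseudocount of 1, below those of complement (0.79) and macrophage markers (0.75) at that setting. Chga, Chgb, Scg2 and Scg3 encode granins, acidic proteins that pack hormones and peptides into dense core vesicles. Chgb was at 1.53, 4.18 and 1.95 FPKM on day 2 and 12.2, 17.9 and 13.1 FPKM on day 4 (2.56 ± 0.36, adjusted p = 0.000408), the most abundant of them per length. Chga was at 0.482, 0.914 and 0.310 FPKM on day 2 and 2.52, 4.33 and 3.11 FPKM on day 4 (2.42 ± 0.32, adjusted p = 0.000216), and Scg2 at 0.512, 0.347 and 0.420 FPKM on day 2 and 2.13, 5.53 and 3.47 FPKM on day 4 (2.77 ± 0.44, adjusted p = 0.00152). In all 3 genes the days were far apart, and replicate 2 was the highest of day 4. Scg3 rose by 2.64 ± 0.35 (adjusted p = 0.000218), and Pcsk2, which cleaves prohormones, by 2.16 ± 0.46 (adjusted p = 0.0114). Vgf, a precursor of neuropeptides, went from 0.418, 0.277 and 0.237 to 0.850, 1.20 and 1.05 FPKM (1.48 ± 0.32, adjusted p = 0.0134). Pcsk2 lost its call without day 4 replicate 2 (adjusted p = 0.0596), and Vgf without day 2 replicate 2, day 2 replicate 3 or day 4 replicate 2 (up to 0.0686). Nts, the precursor of neurotensin, chosen after its values were seen, was at 1.89, 0.988 and 0.242 FPKM on day 2 and 5.45, 2.26 and 3.27 FPKM on day 4 (1.97 ± 0.50, adjusted p = 0.0300), and was lost in all leave-out fits except those without day 2 replicate 1 or day 4 replicate 2 (up to 0.158).

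A few synaptic genes rose, at low levels. On the list for presynaptic vesicles and release, 27 of 40 genes were tested. Of these, 4 were called higher and none lower, and the replicate block gave 7 and 2. Levels summed to 153 to 169 FPKM on day 2 and 174 to 186 FPKM on day 4. In a fit of the 6 libraries alone 7 were called higher, and with a filter of at least 1 FPKM in the mean, which leaves out Snap25 and Bsn, 2. Snap25, a SNARE protein of vesicle fusion, was at 0.133, 0.227 and 0.111 FPKM on day 2 and 1.41, 1.81 and 1.30 FPKM on day 4. Its change was 2.66 ± 0.28 (adjusted p = 2.15e-05), so the day 4 level was 6.31-fold that of day 2 on the FPKM + 0.1 scale and still under 2 FPKM. Bsn, the active zone protein bassoon, rose by 1.31 ± 0.26 (adjusted p = 0.00764), and Napb, a neuronal SNAP that recycles SNARE complexes, by 1.12 ± 0.21 (adjusted p = 0.00436). Sv2a, a synaptic vesicle glycoprotein, rose by 1.06 ± 0.29 (adjusted p = 0.0410) and was not called without any one library (adjusted p of up to 0.142 without day 2 replicate 2). Syt1, the calcium sensor of release, was already at 5.27, 6.10 and 5.63 FPKM on day 2 and was at 6.47, 7.10 and 7.01 FPKM on day 4 (0.27 ± 0.21, adjusted p = 0.518).

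Among ion channels and receptors of neurons, 5 of 32 tested genes rose and none fell, and 8 rose and 1 fell with the block. Their summed level overlapped between the days (156 to 173 FPKM on day 2, 157 to 169 FPKM on day 4). Without day 4 replicate 2, 3 were called higher. With a pseudocount of 0.01 or in a fit of the 6 libraries alone 3 were called higher. The 5 genes were low, and with a filter of at least 1 FPKM in the mean over all libraries they were not tested, 0 genes of the list were called higher and the list median went from 0.20 to -0.01. Gria2, an AMPA receptor subunit, was at 0.257, 0.397 and 0.281 FPKM on day 2 and 1.41, 1.90 and 1.47 FPKM on day 4 (2.04 ± 0.27, adjusted p = 0.000216). Grin1, the obligatory NMDA receptor subunit, was at 0.217, 0.201 and 0.156 FPKM on day 2 and 1.29, 1.45 and 0.851 FPKM on day 4 (2.13 ± 0.36, adjusted p = 0.00197). The days did not overlap for either gene. Chrnb2, a nicotinic receptor subunit of neurons, rose by 1.79 ± 0.25 (adjusted p = 0.000339). Cacng4, an auxiliary subunit of AMPA receptors, and Kcnc1, a fast potassium channel, rose by 1.73 ± 0.42 and 1.14 ± 0.26 (adjusted p = 0.0252 and 0.0170). Cacng4 lost its call without day 2 replicate 1, day 2 replicate 3 or day 4 replicate 2 (up to 0.122), and Kcnc1 without day 2 replicate 2, day 4 replicate 1 or day 4 replicate 2 (up to 0.0953). Gria2, Grin1 and Chrnb2 kept theirs.

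Of 59 listed genes for axon guidance and neuronal adhesion, 51 were tested. Among the 51, 5 were called higher and none lower, and 9 and 1 with the block, and the list median was 0.10. The list summed to 454 to 493 FPKM on day 2 and 507 to 580 FPKM on day 4. With a pseudocount of 0.01 or no filter on low genes 3 were called higher. The count higher was 1 without day 2 replicate 2, 2 without day 4 replicate 1 and 3 without any one of the other 4 libraries. Nrxn2, a presynaptic adhesion molecule, was at 0.593, 0.744 and 0.393 FPKM on day 2 and 4.25, 4.23 and 2.47 FPKM on day 4 (2.46 ± 0.31, adjusted p = 0.000155) and was called without any one library. Ntn1, the guidance cue netrin-1, was at 6.87, 2.92 and 6.11 FPKM on day 2 and 18, 12 and 15.4 FPKM on day 4 (1.57 ± 0.31, adjusted p = 0.00708, and 0.0655 without day 2 replicate 2). Slit1, Efnb3 and Plxnd1, which encode a repellent, an ephrin and a plexin, rose by 1.28 ± 0.34, 1.04 ± 0.29 and 0.77 ± 0.16 (adjusted p = 0.0403, 0.0472 and 0.00979). Slit1 and Efnb3 passed the test only with all 6 libraries (up to 0.120 without day 2 replicate 1 and 0.193 without day 4 replicate 2), and Plxnd1 failed without day 2 replicate 2 or day 4 replicate 1 (up to 0.0709).

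Several further neuronal genes were among those that rose most. Neurod6, a basic helix-loop-helix factor of cortical projection neurons, was counted with 1, 4 and 2 fragments on day 2 and 62, 55 and 61 on day 4, or 0.0199, 0.0956 and 0.0468 and 1.40, 1.57 and 1.25 FPKM (3.31 ± 0.37, adjusted p = 3.03e-05). Igfbpl1, a secreted protein related to IGF binding proteins, was at 0.0660, 0.506 and 0.325 FPKM on day 2 and 1.70, 4.81 and 3.58 FPKM on day 4 (3.19 ± 0.47, adjusted p = 0.000583). Gng3, a G protein γ subunit of neurons, rose by 2.86 ± 0.47 (adjusted p = 0.00190), and Mgat5b, a glycosyltransferase of brain, by 2.65 ± 0.27 (adjusted p = 2.15e-05). These 4 genes kept their calls without any one library. The following 5 genes were chosen after their values were seen. Lhx3, a homeodomain factor of motor neurons, was listed at 0 on day 0 and was at 1.38, 3.98 and 2.41 FPKM on day 2 and 12.3, 7.52 and 9.88 FPKM on day 4 (1.99 ± 0.38, adjusted p = 0.00522). Islr2 and Celsr3, which act in axon growth, rose by 1.80 ± 0.30 and 1.61 ± 0.25 (adjusted p = 0.00191 and 0.000908). Brsk2, a kinase of neuronal polarity, rose by 1.45 ± 0.27 (adjusted p = 0.00403). Shank1, a scaffold of the postsynaptic density, rose by 1.39 ± 0.28 (adjusted p = 0.00746, and 0.0526 without day 4 replicate 2).

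**Figure D1:**
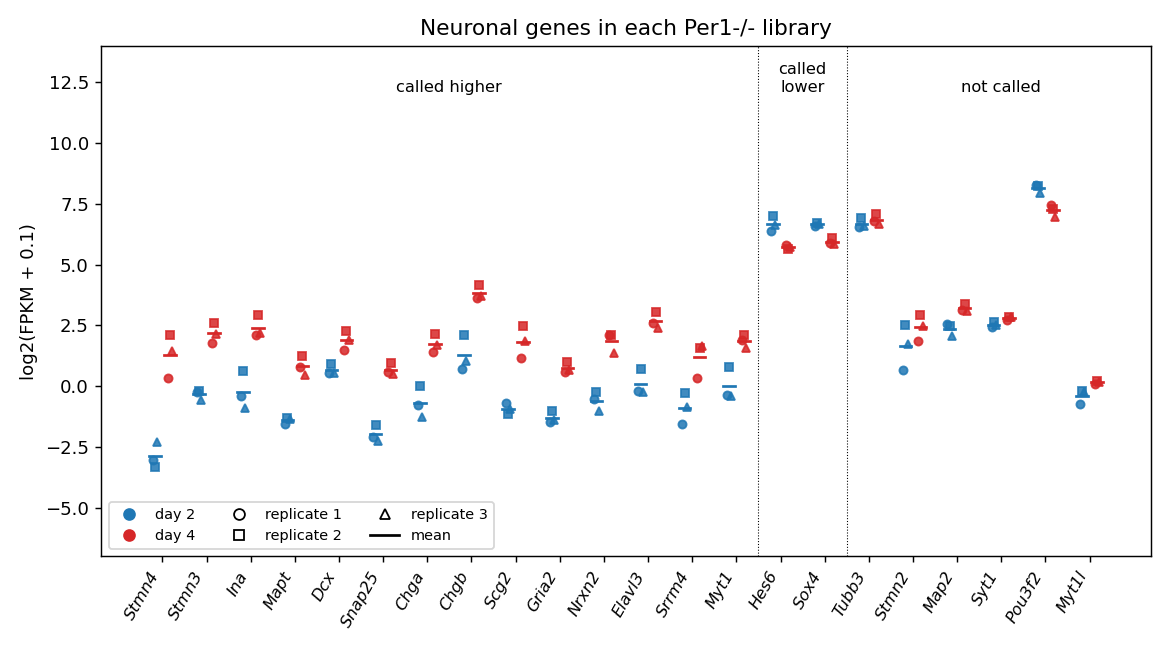
Levels of 22 neuronal genes in the 6 Per1-/- libraries, as log2(FPKM + 0.1), with blue for day 2, red for day 4, a symbol for each replicate and a bar for the mean of the log2 values. The 14 genes called higher lie well below Tubb3 on day 2 and stay below it on day 4, Hes6 and Sox4 fell, and the 6 genes on the right, among them the transduced Pou3f2 and Myt1l, were not called.

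Neuronal transcription factors moved in both directions. Of 43 listed factors, 23 were tested, 3 rose and 2 fell, and the median change was -0.08. Myt1, a zinc finger factor of the same family as Myt1l, was at 0.668, 1.62 and 0.664 FPKM on day 2 and 3.68, 4.26 and 2.86 FPKM on day 4 (1.86 ± 0.31, adjusted p = 0.00186), and Scrt1, a neuronal zinc finger repressor, rose by 1.56 ± 0.31 (adjusted p = 0.00676). Ebf1, a factor of several lineages, rose by 0.83 ± 0.21 (adjusted p = 0.0330), but was called only without day 2 replicate 1 among the leave-out fits (up to 0.166). The 2 that fell were abundant. Hes6, which promotes neurogenesis by opposing Hes1, was at 82.5, 127 and 99.4 FPKM on day 2 and 55.6, 49.7 and 52.3 FPKM on day 4 (-0.95 ± 0.16, adjusted p = 0.00211). Sox4, a factor of neuronal progenitors, was at 95.2, 104 and 102 FPKM on day 2 and 58.8, 67.9 and 57.8 FPKM on day 4 (-0.71 ± 0.11, adjusted p = 0.000867). Both were lower in every day 4 library, kept their calls without any one library, and had day 0 means of 11.1 and 31.4 FPKM. On the list of Notch ligands, receptors and targets, 0 of 17 tested genes were called, and 1 was higher with the block.

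The promoters of the neuronal genes were searched for CAGCTG, an E-box of the kind that neuronal basic helix-loop-helix factors bind, whose letters are the same on both strands. The windows were 250 bases before to 50 after each start site of RefSeq, on GRCm38.p6. Of the 35 genes called higher on the 6 lists for cytoskeleton, splicing, granins, presynapse, channels and guidance, 23 had such windows, and 12 of their 33 windows (36.36%) held CAGCTG. The share was 15.57% of 13237 windows of tested genes and 16.3% of all windows in the table. It was 21.58% for all genes called higher and 21.71% for all genes called lower. The motifs planned with it were CATTCC (TEAD), CACGTG (CLOCK and BMAL1) and TGACTCA (AP-1). CATTCC was also more frequent, in 21.21% of the 33 windows beside 12.14% for tested genes. CACGTG was in 3.03% beside 9.69% and TGACTCA in 0% beside 3.73%. A higher share was thus not particular to CAGCTG, and no share was tested. The 3 windows shown are of genes called in all leave-out fits. All 3 carry CAGCTG, in capitals, whereas 9 of the 23 genes did, so they are examples with the motif. Elavl3 is at chr9:22051974-22052273 on the minus strand, Chga at chr12:102554691-102554990 on the plus strand and Ina at chr19:47014431-47014730 on the plus strand, and each is printed 5′ to 3′ in the direction of the gene.
Elavl3: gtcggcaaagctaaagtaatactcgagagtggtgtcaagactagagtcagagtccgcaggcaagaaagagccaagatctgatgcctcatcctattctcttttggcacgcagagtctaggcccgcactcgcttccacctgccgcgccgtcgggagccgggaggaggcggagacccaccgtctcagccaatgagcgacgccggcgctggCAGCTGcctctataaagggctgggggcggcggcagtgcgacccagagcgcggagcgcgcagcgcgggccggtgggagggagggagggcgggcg
Chga: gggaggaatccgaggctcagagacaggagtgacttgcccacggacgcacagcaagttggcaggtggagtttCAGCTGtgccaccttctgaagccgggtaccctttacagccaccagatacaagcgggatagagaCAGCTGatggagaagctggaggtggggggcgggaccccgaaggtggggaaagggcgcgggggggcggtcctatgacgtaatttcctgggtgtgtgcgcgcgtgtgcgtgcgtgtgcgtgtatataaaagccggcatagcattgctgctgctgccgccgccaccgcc
Ina: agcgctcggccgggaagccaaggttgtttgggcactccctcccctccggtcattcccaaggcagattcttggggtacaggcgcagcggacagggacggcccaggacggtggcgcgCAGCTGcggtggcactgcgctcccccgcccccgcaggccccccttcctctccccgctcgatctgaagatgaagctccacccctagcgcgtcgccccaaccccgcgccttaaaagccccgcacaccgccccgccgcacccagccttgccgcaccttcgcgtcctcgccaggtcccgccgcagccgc
The motif began at base -43 from the start site in Elavl3, at -179 and -116 in Chga and at -135 in Ina. In Chga and Ina, unlike Elavl3, the bases after the start site were not found in an annotated transcript. Their distances rest on the RefSeq start site alone. A match of letters is a description and no evidence of binding.

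Several of the genes that fell most were low on day 0. Snai3, a repressor of the Snail family, was on day 0 at 0, 0 and 0.125 FPKM, then at 0.790, 1.55 and 0.958 FPKM on day 2 and 0.0896, 0.0753 and 0.270 FPKM on day 4 (-2.33 ± 0.49 from day 2 to day 4, adjusted p = 0.010, and 0.0750 without day 2 replicate 2). Col25a1, a membrane collagen needed for motor innervation of muscle, was at 0.0639, 0.261 and 0.146, then 4.86, 7.05 and 7.80 and then 1.79, 1.90 and 2.36 FPKM (-1.64 ± 0.30, adjusted p = 0.00392). Sstr1, a somatostatin receptor, was listed at 0 in all 3 libraries of day 0 and was at 3.58, 3.97 and 4.52 FPKM on day 2 and 1.40, 1.68 and 1.09 FPKM on day 4 (-1.48 ± 0.23, adjusted p = 0.00133). These 3 genes were lower in every day 4 library than in any day 2 library and stayed above their day 0 means. The day 0 comparison shares the day 2 libraries, so a high day 2 value enters both, and the 2 changes are given side by side only.

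Pvalb, a calcium buffer of fast muscle and interneurons, was on day 0 at 0.0496, 0.125 and 0 FPKM, then at 10.3, 20.2 and 21.7 FPKM on day 2 and 3.5, 6.47 and 8.05 FPKM on day 4 (-1.52 ± 0.41, adjusted p = 0.0402). Bmp7, a ligand of the BMP family, went from 0.553, 0.468 and 0.0843 to 24.4, 32.1 and 26.7 and then 11.1, 10.9 and 9.28 FPKM (-1.40 ± 0.39, adjusted p = 0.0465). Parm1, a mucin-like membrane protein chosen after its values were seen, was at 44.1, 47.9 and 38.7 FPKM on day 2 and 19.5, 17.5 and 17.9 FPKM on day 4 (-1.24 ± 0.35, adjusted p = 0.0488, and 0.0684 with the block). The 3 genes were lower in every day 4 library than in any day 2 library, with tests close to the threshold. Without one library, Bmp7 and Parm1 were not called in any fit (up to 0.183 and 0.178, both without day 2 replicate 2), and Pvalb was called only without day 2 replicate 1 or day 4 replicate 3 (up to 0.173 without day 4 replicate 1). Chrnb1, the β subunit of the muscle acetylcholine receptor, was at 9.42, 12.2 and 10.3 FPKM on day 2 and 4.32, 3.15 and 4.27 FPKM on day 4 (-1.43 ± 0.23, adjusted p = 0.00133). It was the only called gene among 25 tested genes of skeletal muscle, and Acta1, the skeletal actin, had 8.49, 10.1 and 10.5 FPKM on day 2 and 31.5, 18.1 and 27.1 FPKM on day 4 (1.36 ± 0.47, adjusted p = 0.105, and 0.0489 with the block).

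Ptgs2, the inducible prostaglandin synthase, was on day 0 at 55.4, 149 and 129.8 FPKM, then at 1.16, 2.01 and 2.24 FPKM on day 2 and 0.467, 0.415 and 0.728 FPKM on day 4 (-1.56 ± 0.39, adjusted p = 0.0281). Its call was kept only without day 2 replicate 1 or day 4 replicate 3 (up to 0.122 without day 2 replicate 2). Chmp4c, an ESCRT subunit of the last step of cell division, was at 2.59, 3.51 and 3.00 FPKM on day 2 and 0.718, 0.996 and 0.831 FPKM on day 4 (-1.72 ± 0.33, adjusted p = 0.00448) and was called in all leave-out fits. The long noncoding RNA BC046251 changed by -1.85 ± 0.36 (adjusted p = 0.00557) and kept its call in the same fits. Among the rest of the genes that fell most were Coro6, an actin-binding coronin, and Sytl1, a Rab27 effector of secretion, with changes of -1.63 ± 0.36 and -1.45 ± 0.33 (adjusted p = 0.0130 and 0.0169). Coro6 was lost without day 2 replicate 2 or day 4 replicate 2 (up to 0.0663), and Sytl1 without day 2 replicate 1, day 4 replicate 2 or day 4 replicate 3 (up to 0.0745). Nr4a3, an orphan nuclear receptor and the only called gene of 33 immediate early genes, was at 4.27, 5.85 and 5.72 FPKM on day 2 and 1.73, 2.00 and 2.36 FPKM on day 4 (-1.33 ± 0.28, adjusted p = 0.0108, lost without day 2 replicate 2 or day 4 replicate 1, up to 0.0652). Gadd45g, a stress-induced growth arrest protein, was at 49.2, 52.0 and 63.4 FPKM on day 2 and 30.3, 14.3 and 30.1 FPKM on day 4 (-1.21 ± 0.22, adjusted p = 0.00403). Among the most abundant genes that fell, Tmem123, a membrane protein, changed by -0.59 ± 0.10 (adjusted p = 0.00158) and H2afx, the histone variant of DNA breaks, by -0.61 ± 0.16 (adjusted p = 0.0353). Tmem123 was lost without day 4 replicate 1, where its size fell under that of a call, and H2afx was kept only without day 2 replicate 1 (up to 0.201 without day 2 replicate 2). The mitochondrial leucine tRNA gene mt-Tl1 changed by -1.37 ± 0.28 (adjusted p = 0.00919), and Eif3j2, which encodes a subunit of a translation initiation factor, by -1.28 ± 0.35 (adjusted p = 0.0427). The call of mt-Tl1, which had 73, 78 and 84 fragments on day 2 and 20, 20 and 58 on day 4, was lost without day 2 replicate 2 or day 4 replicate 1 (up to 0.0623), and that of Eif3j2 in all such fits except the one without day 2 replicate 3 (up to 0.167).

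**Figure D2:**
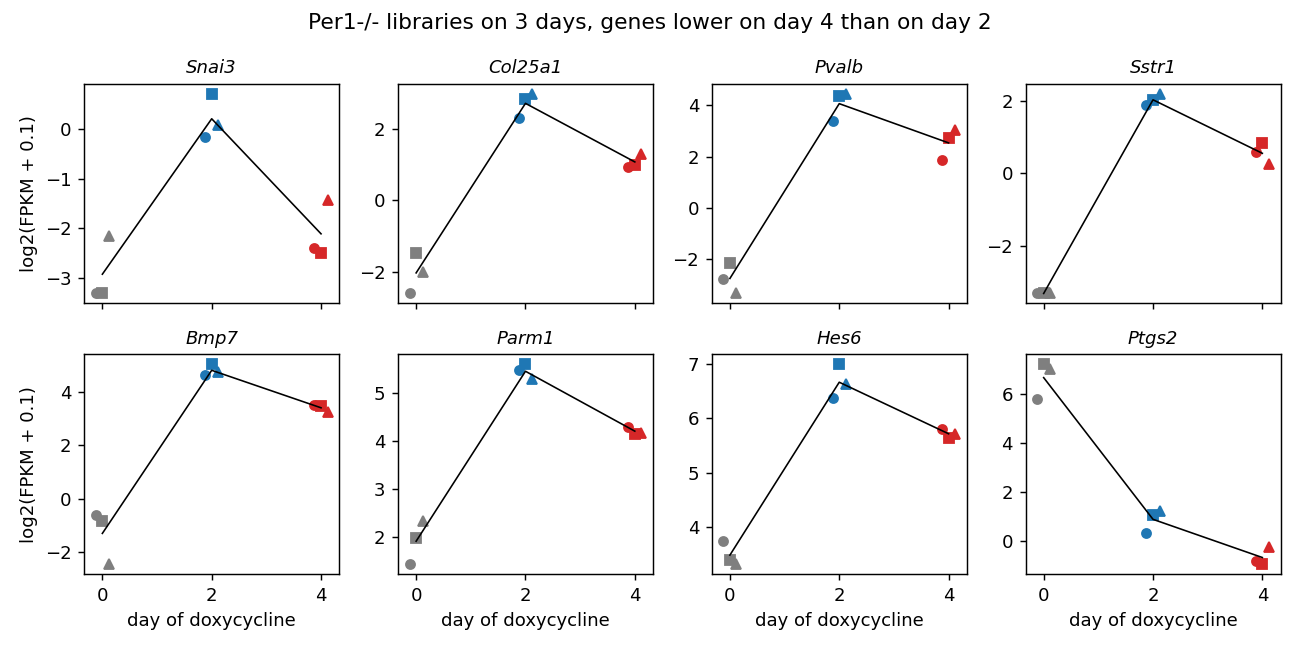
Levels of 8 genes that fell between day 2 and day 4, as log2(FPKM + 0.1) in the 3 Per1-/- libraries of days 0, 2 and 4, with a symbol for each replicate and a line through the means of the log2 values. In 7 of the 8 genes day 2 is the highest day, and Ptgs2 is highest on day 0.

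Mitosis genes were lower on day 4. All 46 tested genes of the mitosis list had a negative change, with a median of -0.81, and in 40 of them the days did not overlap, against 15.7% of all tested genes. Only 17 were called lower (36.96%, beside 1.06% of all tested genes), and 41 with the replicate block, where 2.14% of all tested genes were called lower. The summed level of the list was 289, 480 and 375 FPKM on day 2 and 205, 246 and 197 FPKM on day 4, highest in day 2 replicate 2. Without that library none of the 46 was called and the list median was -0.60. The count was 28 without day 2 replicate 1, 4 without day 2 replicate 3, and 4, 10 and 2 without day 4 replicates 1, 2 and 3. It was 10 with no filter on low genes, 41 after rescaling to a common sum and 2 in a fit of the 6 libraries alone.

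Ube2c, the ubiquitin-conjugating enzyme of the anaphase-promoting complex, was at 11.7, 19.2 and 16.3 FPKM on day 2 and 7.91, 6.67 and 6.77 FPKM on day 4 (-1.11 ± 0.24, adjusted p = 0.0126). Aurka, the centrosomal kinase Aurora A, was at 5.95, 12 and 7.91 FPKM on day 2 and 3.76, 4.48 and 3.85 FPKM on day 4 (-1.02 ± 0.25, adjusted p = 0.0252), and Ckap2l, a spindle protein, at 7.79, 13.9 and 11.3 FPKM on day 2 and 4.76, 6.48 and 4.87 FPKM on day 4 (-1.0 ± 0.22, adjusted p = 0.0149). Replicate 2 was the highest of day 2 in all 3 genes, and no day 4 value reached a day 2 value. Melk, a kinase of dividing cells, Dlgap5, a spindle protein, and Cenpe, a kinetochore motor, changed by -1.0 ± 0.21, -0.95 ± 0.24 and -0.92 ± 0.25 (adjusted p = 0.00995, 0.0281 and 0.0416). Gtse1, a microtubule protein of G2 and M phase, chosen after its values were seen, was at 11.9, 16.7 and 15.2 FPKM on day 2 and 7.73, 6.77 and 7.73 FPKM on day 4 (-0.96 ± 0.18, adjusted p = 0.00403) and, unlike the others here, remained called without any one library. Without day 2 replicate 2, the adjusted p was 0.0894 for Ube2c, 0.171 for Aurka, 0.106 for Ckap2l, 0.0840 for Melk, 0.186 for Dlgap5 and 0.211 for Cenpe. Further leave-out fits also ended the calls of Aurka, Ckap2l, Melk, Dlgap5 and Cenpe, whereas Ube2c lost its call only there. Mki67, a general marker of cycling cells, was at 15.8, 23.7 and 21.2 FPKM on day 2 and 13.1, 15.1 and 11.1 FPKM on day 4 (-0.61 ± 0.23, adjusted p = 0.142, and 0.0133 with the block). Cdk1, the kinase that drives entry into mitosis, changed by -0.63 ± 0.20 (adjusted p = 0.0777, and 0.00658 with the block).

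S phase genes were mostly lower, and 1 passed the test. Of 49 tested genes for DNA replication and S phase, 1 was called lower (2.04%, beside 1.06% of all tested genes) and 5 with the block. The list median was -0.26, beside -0.01 for all tested genes, and 47 of the 49 changes were negative. The days did not overlap in 12, all lower on day 4, against 15.7% of all tested genes. Rrm2, a subunit of ribonucleotide reductase, was at 15.9, 31.8 and 25.3 FPKM on day 2 and 9.56, 13.7 and 10.3 FPKM on day 4 (-1.07 ± 0.28, adjusted p = 0.0357), and was called only without day 2 replicate 1 or day 4 replicate 2 among the leave-out fits (up to 0.198 without day 2 replicate 2). Of 31 tested CDK inhibitors and p53 targets, 3 fell, namely Gadd45g, Eda2r, a receptor of the TNF family, and Plk2, a kinase. Without day 2 replicate 2, day 2 replicate 3, day 4 replicate 1 or day 4 replicate 2, 1 fell. Eda2r changed by -0.78 ± 0.20 and Plk2 by -0.60 ± 0.16 (adjusted p = 0.0361 and 0.0344). Gadd45g kept its call without any one library, Eda2r only without day 2 replicate 1 or day 4 replicate 3 (up to 0.130 without day 4 replicate 1), and Plk2 only in the same 2 fits (up to 0.139 without day 2 replicate 2). Cdkn1a, the p53 target p21, was at 100.2, 90.5 and 94.7 FPKM on day 2 and 84.5, 67.4 and 76.1 FPKM on day 4 (-0.33 ± 0.15, adjusted p = 0.238), and no replication-dependent histone gene of 14 tested was called.

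The same promoter windows were searched on both strands for TTTGAA, the core of the element that the DREAM complex binds in genes of G2 and M phase, and for CCAAT, bound by NF-Y, 2 motifs chosen after the values were seen. Of 39 windows of 37 mitosis genes, 28 held TTTGAA (71.79%) and 28 held CCAAT (71.79%). Of 13237 windows of tested genes, 11.87% held TTTGAA and 37.5% held CCAAT. Of 152 windows of all genes called lower, the shares were 21.71% and 46.05%. The windows of Ube2c at chr2:164769679-164769978 on the plus strand, Aurka at chr2:172370521-172370820 on the minus strand and Ckap2l at chr2:129297163-129297462 on the minus strand are shown because the genes changed most on the list, with both motifs of either strand in capitals.
Ube2c: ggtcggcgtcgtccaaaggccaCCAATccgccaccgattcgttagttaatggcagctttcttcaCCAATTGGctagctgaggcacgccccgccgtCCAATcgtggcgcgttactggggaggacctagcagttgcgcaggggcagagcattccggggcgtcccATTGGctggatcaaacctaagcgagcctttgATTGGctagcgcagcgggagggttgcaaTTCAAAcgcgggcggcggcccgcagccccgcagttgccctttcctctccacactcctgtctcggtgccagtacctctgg
Aurka: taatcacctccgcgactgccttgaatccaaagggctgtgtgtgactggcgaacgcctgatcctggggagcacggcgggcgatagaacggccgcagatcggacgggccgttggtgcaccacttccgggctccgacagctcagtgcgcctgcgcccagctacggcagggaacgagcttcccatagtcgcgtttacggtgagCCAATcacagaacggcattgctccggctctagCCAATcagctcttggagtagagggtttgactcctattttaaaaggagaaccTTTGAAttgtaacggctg
Ckap2l: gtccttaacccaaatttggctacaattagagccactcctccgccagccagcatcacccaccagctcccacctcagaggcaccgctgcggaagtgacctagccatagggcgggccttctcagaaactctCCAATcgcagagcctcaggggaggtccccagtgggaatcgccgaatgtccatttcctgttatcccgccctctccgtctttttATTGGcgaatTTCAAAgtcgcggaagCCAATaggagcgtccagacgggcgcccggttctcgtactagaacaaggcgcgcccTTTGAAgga
TTTGAA began at base -29 from the start site in Ube2c, at 33 in Aurka and at -30 and 42 in Ckap2l, the match at -29 and the one at -30 being on the opposite strand. In Aurka, unlike the other genes shown here, the bases after the start site were not found in an annotated transcript. The window of Ube2c held 6 matches to CCAAT, that of Aurka 2 and that of Ckap2l 3.

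**Figure D3:**
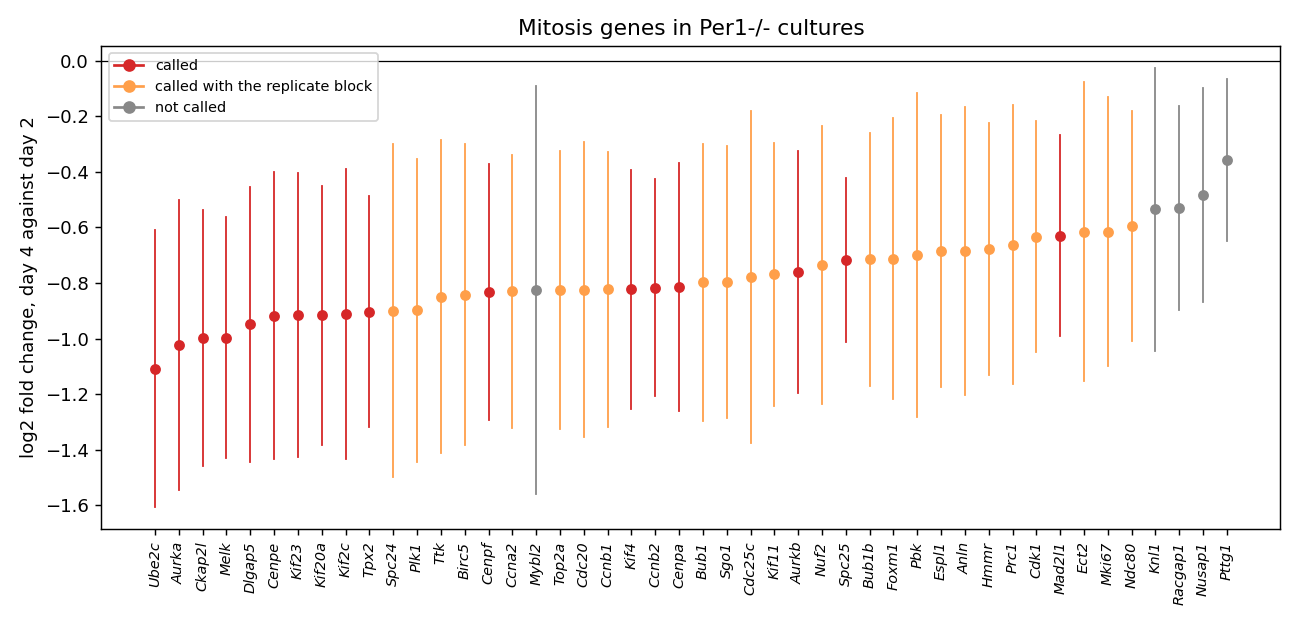
Log2 fold change of the 46 mitosis genes between day 2 and day 4 in Per1-/- cultures, with lines for 95% confidence intervals, red for the 17 genes called lower, orange for those called only with the replicate block and gray for the rest. All 46 points lie below 0.

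Macrophage genes had a high list median, and 1 passed the test. Of 55 listed markers, 46 were tested. Of these, 1 was called higher (2.17%, beside 1.38% of all tested genes) and none lower, and 4 were called higher with the block. The list median was 0.89, and the days did not overlap in 23 markers, all higher on day 4, against 14.1% of all tested genes. The summed level of the list overlapped between the days, and it rose within each same-numbered pair, from 928 to 2431, from 714 to 1368 and from 1440 to 2422 FPKM. All 3 pairs were higher on day 4 for 42 of the 46 markers and lower for 0. No share of all tested genes was taken for this count, so it is not read as a result about the markers. In bulk RNA, more cells of a type and more RNA per cell cannot be told apart.

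Sirpa, an inhibitory receptor of myeloid cells that neurons and fibroblasts also express, was at 38.2, 32.4 and 48.9 FPKM on day 2 and 108, 75.4 and 91.4 FPKM on day 4 (1.20 ± 0.27, adjusted p = 0.0167), and its call was lost without day 2 replicate 2, day 4 replicate 1 or day 4 replicate 3 (up to 0.0995). Adgre1, which encodes the macrophage antigen F4/80, was at 14.4, 11.3 and 18.2 FPKM on day 2 and 54.1, 37.3 and 42.9 FPKM on day 4 (1.61 ± 0.49, adjusted p = 0.0689, and 0.0286 with the block). Csf1r, the receptor of the growth factor M-CSF, was at 29.5, 23 and 38.6 FPKM on day 2 and 79.1, 54.7 and 72.5 FPKM on day 4 (1.19 ± 0.53, adjusted p = 0.207, and 0.0460 in a fit of the 6 libraries alone). Both were more than 2-fold higher in mean on day 4, and their days did not overlap. Ms4a7 and Trem2, macrophage membrane proteins chosen after their values were seen, had changes of 1.42 ± 0.47 and 1.11 ± 0.50 (adjusted p = 0.0938 and 0.216, and 0.0315 and 0.0318 with the block). Clec4a1, a myeloid lectin receptor also chosen after its values were seen, was at 2.31, 1.88 and 3.42 FPKM on day 2 and 12.4, 6.13 and 12.7 FPKM on day 4 (1.96 ± 0.42, adjusted p = 0.0122, lost without day 2 replicate 2, day 4 replicate 1 or day 4 replicate 3, up to 0.0769). Itgam, which encodes CD11b, was at 3.29, 1.61 and 2.84 FPKM on day 2 and 4.52, 2.26 and 3.48 FPKM on day 4, with overlapping days (0.40 ± 0.52, adjusted p = 0.735).

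Several lists hold genes that macrophages also express, and the part of the macrophage markers in their values was not tested. Of 18 tested complement genes, 0 were higher and 1 lower, with 3 and 1 under the block and a list median of 0.84. C1qb, a chain of C1q, was at 100.2, 94.6 and 154 FPKM on day 2 and 256, 172 and 217 FPKM on day 4 (0.90 ± 0.54, adjusted p = 0.369), and Cd59a, which shields cells from complement, was the one that fell (-0.89 ± 0.20, adjusted p = 0.0156, lost without day 2 replicate 1, day 4 replicate 1 or day 4 replicate 2, up to 0.0607). Lgals3, galectin 3, was among the 5 most abundant genes called higher, at 42.1, 31.0 and 67.2 FPKM on day 2 and 129, 74.1 and 111 FPKM on day 4 (1.20 ± 0.33, adjusted p = 0.0438). Dab2, an endocytic adaptor, was at 43.2, 29.9 and 44.7 FPKM on day 2 and 93.9, 56.1 and 67.0 FPKM on day 4 (0.87 ± 0.22, adjusted p = 0.0299), and Selenop, a selenium carrier, at 80.2, 58.2 and 86.8 FPKM on day 2 and 198, 153 and 223 FPKM on day 4 (1.35 ± 0.37, adjusted p = 0.0447). Lgals3 was called only without day 2 replicate 3 or day 4 replicate 2 (up to 0.225 without day 2 replicate 2), Selenop in no leave-out fit (up to 0.199), and Dab2 failed without day 2 replicate 2, day 4 replicate 1 or day 4 replicate 3 (up to 0.179). Gsn, the actin-severing protein gelsolin and the most abundant gene called higher, was at 317, 166 and 229 FPKM on day 2 and 646, 294 and 461 FPKM on day 4 (0.96 ± 0.24, adjusted p = 0.0270). Its days overlapped, each replicate was higher on day 4 than its own number on day 2, and its call was kept only without day 2 replicate 1 or day 4 replicate 2 (up to 0.176 without day 2 replicate 2).

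The list for cholesterol efflux and LXR targets rose in part, with 2 of 14 tested genes called higher (14.3%, beside 1.38% of all tested genes). With the block 4 were called higher, none was lower in either fit, and the list median was 0.39. Lpl, lipoprotein lipase, was at 8.29, 5.16 and 8.57 FPKM on day 2 and 23.7, 16.9 and 20.0 FPKM on day 4 (1.47 ± 0.32, adjusted p = 0.0127), and Pltp, the phospholipid transfer protein, at 12.7, 9.07 and 10.6 FPKM on day 2 and 27.3, 21.0 and 27.3 FPKM on day 4 (1.22 ± 0.24, adjusted p = 0.00728). Lpl lost its call without day 2 replicate 2 or day 4 replicate 1 (up to 0.0916) and Pltp without day 2 replicate 2 (0.0568). Apoe, the main lipoprotein of macrophages and glia, was at 69.4, 149 and 207 FPKM on day 2 and 164, 323 and 481 FPKM on day 4, with overlapping days (1.19 ± 0.56, adjusted p = 0.238, and 0.0128 with the block). Of 25 tested genes for cholesterol synthesis and uptake, 0 were called. On the lysosome list, 1 of 67 tested genes was called higher (1.49%, close to the 1.38% of all tested genes). It was Atp6v0d2, a proton pump subunit of osteoclasts and macrophages, with 2.52 ± 0.59 (adjusted p = 0.0202, lost without day 2 replicate 1, day 2 replicate 2 or day 4 replicate 1, up to 0.0953). Of 23 tested genes for the uptake of apoptotic cells, only Itgb3, an integrin β chain, rose, at 3.29, 2.78 and 3.47 FPKM on day 2 and 6.92, 6.03 and 5.76 FPKM on day 4 (0.95 ± 0.17, adjusted p = 0.00392), and 5 rose with the block.

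Interferon-stimulated genes had a list median of 0.57, and 3 of 48 tested were called higher, none lower, and 5 higher with the block. With a pseudocount of 1, 8 were called higher, with no filter on low genes or in a fit of the 6 libraries alone 1, and with voom 5. In the leave-out fits, 1 was called without day 2 replicate 2, day 2 replicate 3, day 4 replicate 1 or day 4 replicate 2. The days did not overlap in 18 of the 48 genes, all higher on day 4, against 14.1% of all tested genes. The macrophage markers moved beside these genes, a part that was not tested. Parp14, an ADP-ribosyltransferase, was at 3.00, 2.62 and 2.70 FPKM on day 2 and 9.31, 5.99 and 5.61 FPKM on day 4 (1.26 ± 0.20, adjusted p = 0.00148) and was called in every leave-out fit. Ifit3, an inhibitor of viral RNA translation, was at 6.69, 3.92 and 3.29 FPKM on day 2 and 29.5, 13.1 and 7.72 FPKM on day 4 (1.68 ± 0.42, adjusted p = 0.0291), with replicate 1 the highest of both days. It kept its call only without day 2 replicate 1 or day 4 replicate 3 (up to 0.153 without day 4 replicate 1), and Oas2, a sensor of double-stranded RNA, passed only with all 6 libraries (1.22 ± 0.33, adjusted p = 0.0433, up to 0.195 without day 4 replicate 1). Isg15 was at 20.8, 34.5 and 29.5 FPKM on day 2 and 48.0, 49.2 and 25.1 FPKM on day 4, with overlapping days (0.49 ± 0.38, adjusted p = 0.519). Psmb10, an immunoproteasome subunit, was the one called of 18 tested genes of antigen presentation (0.62 ± 0.15, adjusted p = 0.0252, up to 0.136 without day 4 replicate 1, and also lost without day 2 replicate 2 or 3). Of 36 chemokines and inflammatory cytokines and their receptors, 1 rose and 1 fell (2.78% each, beside 1.38% and 1.06% of all tested genes). The one that rose was Tlr2, a receptor of bacterial lipopeptides (1.11 ± 0.25, adjusted p = 0.0156, lost without day 2 replicate 2 or day 4 replicate 1, up to 0.0861), and the one that fell was Ptgs2.

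Single growth factors and receptors passed the test. Pdgfc, a ligand of the PDGF receptor of fibroblasts, chosen after its values were seen, was at 18.1, 27 and 23 FPKM on day 2 and 8.40, 10.1 and 10.2 FPKM on day 4 (-1.22 ± 0.16, adjusted p = 0.000218) and was called in every leave-out fit. Of 34 tested Wnt genes, 2 rose (5.88%, beside 1.38% of all tested genes), Fzd4 and Wnt11, and 5 with the block. Fzd4, a Frizzled receptor, was at 10.1, 7.25 and 6.05 FPKM on day 2 and 17.3, 20.2 and 17.7 FPKM on day 4 (1.26 ± 0.23, adjusted p = 0.00367) with no overlap. Wnt11, a ligand of noncanonical Wnt signaling, rose by 1.22 ± 0.27 (adjusted p = 0.0156), and was called only without day 2 replicate 1 or day 4 replicate 1 (up to 0.0894 without day 2 replicate 2). On the list for TGF-beta and BMP signaling, 1 of 42 tested genes rose and 2 fell, with 1 and 5 under the block. The shares were 2.38% and 4.76%, beside 1.38% and 1.06% of all tested genes. Acvrl1, the type I receptor ALK1, was at 6.09, 3.60 and 5.41 FPKM on day 2 and 8.99, 9.29 and 9.07 FPKM on day 4 (0.88 ± 0.14, adjusted p = 0.00189). Skil, a repressor of SMAD signaling, changed by -0.71 ± 0.17 (adjusted p = 0.0252) beside Bmp7, and its call was kept only without day 2 replicate 1 or day 4 replicate 2 (up to 0.163 without day 2 replicate 2).

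Imprinted genes of the Dlk1-Dio3 locus on chromosome 12 had different sizes of change. Rtl1, a retrotransposon-derived gene expressed from the paternal allele, was at 1.25, 0.962 and 1.28 FPKM on day 2 and 3.48, 3.26 and 3.68 FPKM on day 4 (1.5 ± 0.33, adjusted p = 0.0126, and 0.0765 without day 2 replicate 2). It was the only called gene of 25 on the list for the IGF axis and imprinted growth genes, and 5 were called with the block. Dlk1, a Notch-like ligand of the same locus that was chosen after its values were seen, was at 159, 47.6 and 54.3 FPKM on day 2 and 385, 185 and 257 FPKM on day 4 (1.83 ± 0.65, adjusted p = 0.120, and 0.00126 with the block). No day 4 value of Dlk1 was as low as any day 2 value, and replicate 1 was the highest on both days. Meg3, the maternally expressed noncoding RNA of the locus, also chosen after its values were seen, was at 58.9, 38.2 and 44.6 FPKM on day 2 and 72.5, 38.6 and 66.0 FPKM on day 4, with overlapping days (0.29 ± 0.23, adjusted p = 0.517). The miRNA genes Mir665 and Mir154 of this chromosome were called on few fragments. Mir154 was listed at 0 on day 2 in all libraries and had 2, 2 and 3 fragments on day 4 (adjusted p = 0.0488, and 0.0599 with the block), and Mir665 had 4, 0 and 2 fragments on day 2 and 18, 12 and 4 on day 4 (adjusted p = 0.0377). Mir154 was called in no leave-out fit (up to 0.152 without day 2 replicate 2), and Mir665 failed without day 2 replicate 2, day 4 replicate 1 or day 4 replicate 2 (up to 0.220).

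Few matrix genes passed the test, and the share called lower among collagens and matrix genes was 1.92%, beside 1.06% of all tested genes. Of 52 tested collagens and matrix genes, only Plod2, a collagen lysyl hydroxylase, was called, at 43.8, 38.0 and 37.5 FPKM on day 2 and 27.3, 21.2 and 26.1 FPKM on day 4 (-0.68 ± 0.14, adjusted p = 0.0113, and 0.0621 without day 4 replicate 2), and with the block 3 were higher and 4 lower. Col6a6, a chain of collagen VI, was off that list and was at 0.435, 0.336 and 0.241 FPKM on day 2 and 3.04, 3.07 and 1.64 FPKM on day 4 (2.59 ± 0.47, adjusted p = 0.00392). Of 24 tested metalloproteinases and inhibitors, 3 fell, and 1 without day 2 replicate 2, day 4 replicate 1 or day 4 replicate 2. Adamts4, an aggrecanase, was at 21.8, 21.7 and 23.1 FPKM on day 2 and 10.9, 11.3 and 10.5 FPKM on day 4 (-1.02 ± 0.19, adjusted p = 0.00377), with a narrow spread on both days and a call in every leave-out fit. Mmp11, stromelysin 3, and Timp1, an inhibitor of metalloproteinases, changed by -0.71 ± 0.18 and -0.67 ± 0.19 (adjusted p = 0.0258 and 0.0469). Timp1 passed in no leave-out fit (up to 0.148 without day 2 replicate 3), and Mmp11 only without day 2 replicate 1 or day 4 replicate 3 (up to 0.106 without day 2 replicate 2). Of 29 tested contractile genes, only Cyr61, a matricellular protein and target of YAP, fell, at 70.5, 106 and 92.8 FPKM on day 2 and 40.5, 52.9 and 52.2 FPKM on day 4 (-0.88 ± 0.24, adjusted p = 0.0409, kept only without day 2 replicate 1, up to 0.193 without day 2 replicate 2).

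Of 32 tested fibroblast identity genes, 0 were called, beside 1.38% higher and 1.06% lower of all tested genes, and 2 were higher with the block. The list median was 0.21, and the days did not overlap in 11 that were higher and 3 that were lower. Of all tested genes, 14.1% were higher and 15.7% lower without overlap. Col3a1, a fibrillar collagen, was at 903, 609.9 and 629 FPKM on day 2 and 1115, 1063 and 1091 FPKM on day 4 (0.63 ± 0.35, adjusted p = 0.322), and Pdgfra, a growth factor receptor of fibroblasts, at 20.3, 15.3 and 17.9 FPKM on day 2 and 28.2, 25.6 and 24.8 FPKM on day 4 (0.56 ± 0.45, adjusted p = 0.533). Acta2, the smooth muscle actin of myofibroblasts, was at 190.3, 595 and 610.1 FPKM on day 2 and 135, 331 and 304 FPKM on day 4 (-0.78 ± 0.36, adjusted p = 0.231). The days did not overlap for Col3a1 and Pdgfra and overlapped for Acta2, and the 95% intervals of the changes ran from -0.09 to 1.36 for Col3a1, from -0.37 to 1.5 for Pdgfra and from -1.54 to -0.03 for Acta2.

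The remaining lists held at most 1 called gene. The lists of 56 cytosolic ribosomal proteins, 53 nuclear genes of the respiratory chain and 20 genes of the core clock and its outputs held no call with or without the block, and their medians were 0.09, -0.02 and 0.07. The clock genes ranged from -0.33 to 0.48, and Per2 was at 2.02, 1.85 and 1.79 FPKM on day 2 and 2.37, 1.83 and 2.03 FPKM on day 4 (0.12 ± 0.13, adjusted p = 0.649). Single calls were Slc16a3, a lactate transporter, among 31 genes of glycolysis and hypoxia (-1.07 ± 0.25, adjusted p = 0.0202), Prdx6, a peroxiredoxin, among 32 of oxidative stress defense (-0.61 ± 0.16, adjusted p = 0.0388), Atf3, a stress-induced factor, among 40 of the ATF4 and unfolded protein response (1.11 ± 0.28, adjusted p = 0.0308) and mt-Nd4l among 13 genes encoded by mitochondria (1.12 ± 0.24, adjusted p = 0.0118). None of these 4 kept its call in all leave-out fits (up to 0.0784 for Slc16a3 without day 4 replicate 3, 0.158 for Prdx6 and 0.132 for Atf3 without day 2 replicate 2, and 0.0613 for mt-Nd4l without day 2 replicate 3). Markers of other cells that a fibroblast culture can hold were not called either, with 14 tested for Schwann and neural crest cells, 9 for astrocytes and oligodendrocytes, 9 for endothelium, 9 for pericytes, 6 for epithelium and 3 for other blood cells. With the block, 1 Schwann, 2 glial and 1 pericyte marker were higher, and 1 endothelial marker was higher and 1 lower. The medians of the Schwann and the glial lists were 0.60 and 0.56, the highest among lists with no call. These lists share members, among them Sox10, Mbp and Cnp, so their medians are not separate results. The glial median was the change of Pdgfra, which fibroblasts also express.

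**Figure D4:**
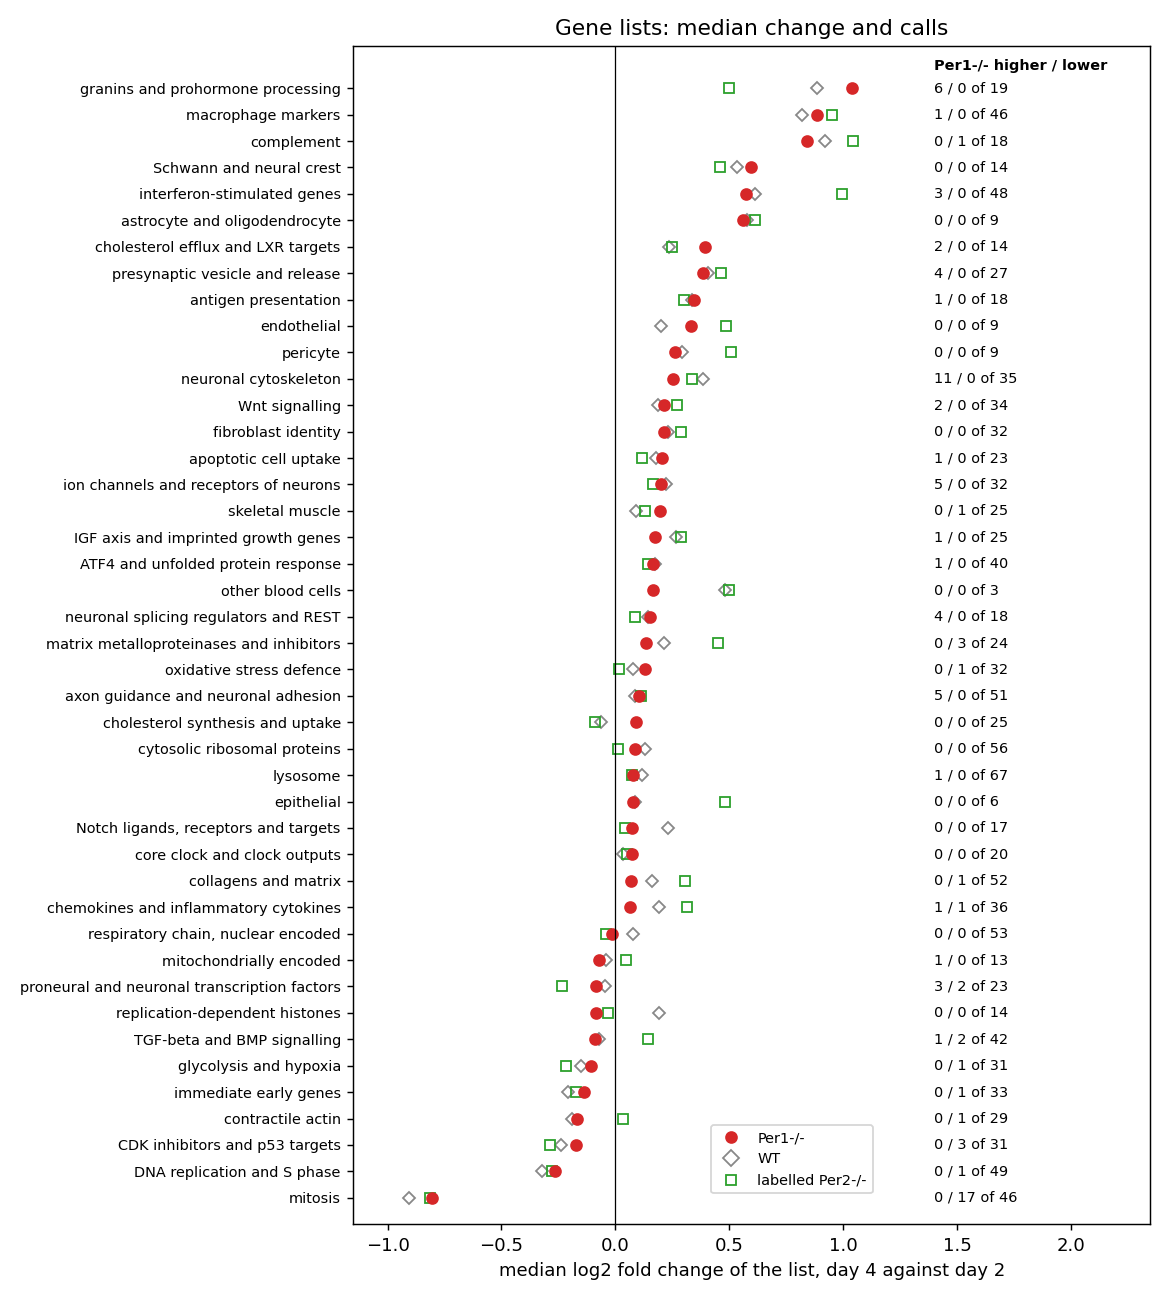
Median log2 fold change between day 2 and day 4 for 43 gene lists, with red dots for Per1-/- cultures, gray diamonds for WT and green squares for libraries labelled Per2-/-, and at the right the genes called higher and lower in Per1-/- cultures of those tested. Granins and macrophage markers lie farthest to the right and mitosis farthest to the left in Per1-/- cultures, with 6, 1 and 17 called genes.

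The same days were compared in the other genotypes, which share no library with the Per1-/- comparison. In WT cultures, 242 genes (1.62%) were higher and 237 (1.59%) lower, and in libraries labelled Per2-/-, 346 (2.32%) and 260 (1.74%). Of the 206 genes that rose in Per1-/- cultures, 202 changed in the same direction in WT and 203 in the libraries labelled Per2-/-. For the 158 that fell, the numbers were 156 and 156. The median change of the 206 was 1.22 in Per1-/- cultures, 1.14 in WT and 1.00 under the Per2-/- label, and that of the 158 was -0.87, -0.84 and -0.79. The genes were chosen by their Per1-/- change, so a somewhat larger value there is part of the choice. Mitosis genes were called lower 34 times in WT and 32 times under the Per2-/- label, beside 17 in Per1-/- cultures, with list medians of -0.91, -0.81 and -0.81.

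The difference of the changes was tested gene by gene. No gene of 14932 was called (0%) for the Per1-/- change against the WT change, or against that under the Per2-/- label, with limma on FPKM, with the block or with voom weights, and the smallest adjusted p was 1.00 in both. An unadjusted limma p under 0.05 was found for 182 genes against WT and 265 against the Per2-/- label. Both counts are smaller than a share of 0.05 of the 14932 genes, the share that p-values give where nothing differs. With the block the counts were 240 and 459, also smaller. Such a deficit can come from p-values that are too large, so the 0 calls are not read as an absence of differences. Its cause was not tested. The median standard error of such a difference was 0.23 on the log2 scale (0 genes were called at this precision, which does not show that the changes were alike). Elavl3 rose by 2.43 in WT, a difference of 0.17 ± 0.38 with a 95% interval of -0.62 to 0.96. For Chga, the WT change was 1.79 and the interval of the difference -0.31 to 1.58, and for Lhx3 they were 1.61 and -0.75 to 1.5. For genes that fell, the WT change was -0.99 for Ube2c, with an interval of the difference of -0.82 to 0.59, -1.45 for Pdgfc with -0.26 to 0.71, and -1.73 for Bmp7 with -0.81 to 1.48. Each of these intervals included 0 and left room for differences in either direction. Among macrophage genes, Adgre1 changed by 1.67 in WT, with an interval of the difference of -1.5 to 1.40.

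The genes with the smallest p-values of the difference were of several kinds. Against WT they were Gm22281, a small nuclear RNA, Gm6063, a processed pseudogene, and mt-Tw, the mitochondrial tRNA of tryptophan, with unadjusted p = 0.000125, 0.000285 and 0.000306 by limma. Gm22281 had 0, 1 and 0 fragments on day 2 and 5, 5 and 4 on day 4 in Per1-/- libraries. mt-Tw was at 22.4, 16.9 and 11.3 FPKM on day 2 and 5.08, 5.49 and 10.5 FPKM on day 4 in Per1-/- libraries (-1.28 ± 0.30, adjusted p = 0.0215), and at 21.9, 14.7 and 16.1 and then 22.4, 30.2 and 25.9 FPKM in WT. Its Per1-/- call was kept only without day 2 replicate 3 or day 4 replicate 3 (up to 0.103 without day 4 replicate 1). Against the Per2-/- label, the smallest p belonged to Rmdn2, a regulator of microtubule dynamics, at 2.08, 2.15 and 2.32 FPKM on day 2 and 1.78, 1.84 and 1.5 FPKM on day 4 in Per1-/- libraries and 1.28, 1.42 and 1.45 and then 1.77, 2.17 and 2.10 FPKM under that label, a difference of -0.85 ± 0.19 (unadjusted p = 0.000187 by limma). None of these 4 differences passed the test after adjustment.

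**Figure D5:**
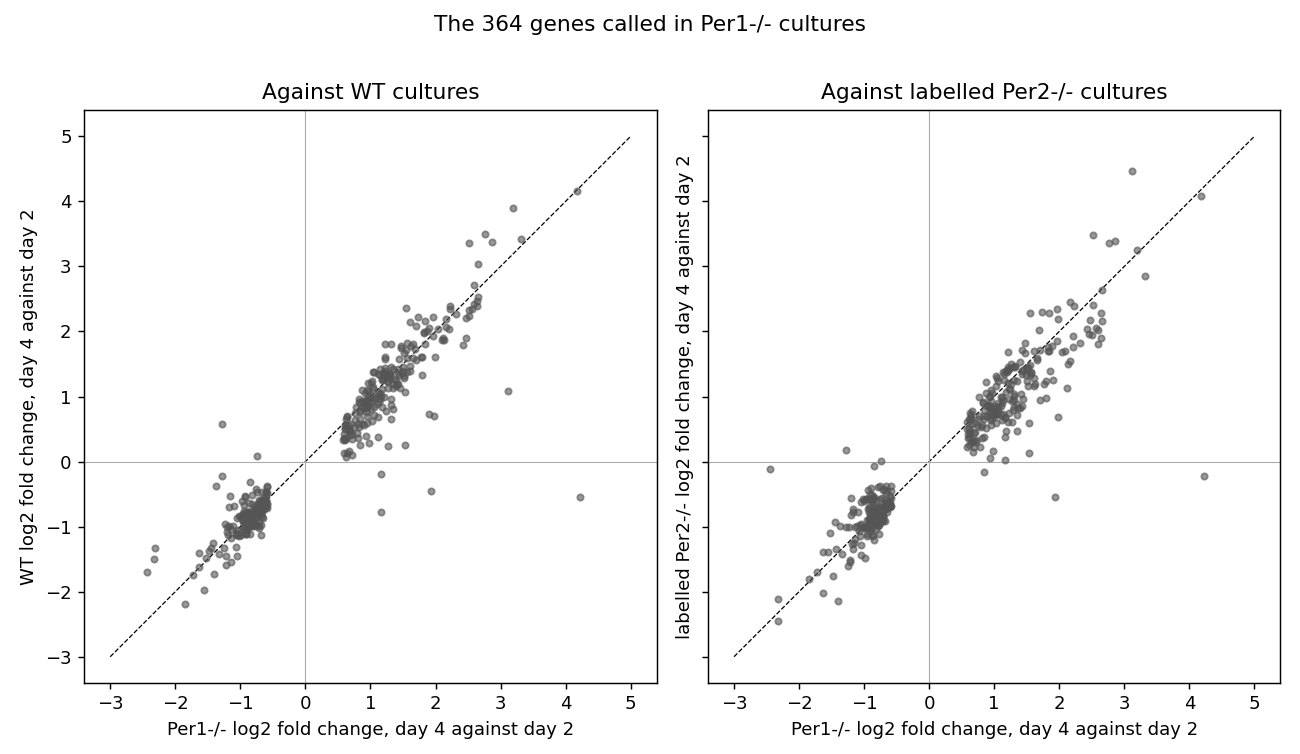
Log2 fold change between day 2 and day 4 of the 364 genes called in Per1-/- cultures, against the change of the same genes in WT cultures (left) and in libraries labelled Per2-/- (right), with a dashed line of equal change. Most points lie along the line in both panels, and 155 of the 158 genes that fell and 201 of the 206 that rose had the same direction in all 3 genotypes.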

How the data were processed

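Total RNA of 27 cultures was sequenced from unstranded poly-A libraries. The authors aligned reads with HISAT2 2.0.5 to mm10 (GRCm38), counted fragments with featureCounts 1.5.0-p3 on Ensembl 94 and deposited a table of FPKM per gene and library. Because the libraries were unstranded, fragments of overlapping antisense genes cannot be told apart. The authors' own comparisons were not used.

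Of 54532 genes, 14932 averaged 0.5 FPKM or more across all 27 libraries and entered the test. A gene near 0 on days 0 and 2 could enter through its day 4 level. Log2(FPKM + 0.1) was fitted with limma 3.58.1 (R 4.3.3, trend, 9 groups), since the FPKM table is not counts, and all p-values are two-sided with Benjamini-Hochberg adjustment. All values of the 6 libraries came to whole fragments (tolerance 0.01), and voom on these fragments was an alternative. Figures were drawn with matplotlib 3.10.9 (Python 3.11.15). On simulated data for 14932 genes, 92% of 50 genes raised by 1 on the log2 scale and 82% of 50 lowered by 1 were called. For changes of 2 the share was 98% in both directions. In a separate run with no changed gene, 0 were called. The changed genes all had at least 1 FPKM on day 2, and every gene was given the same spread, without pairing. The shares for genes of lower level or wider spread were not measured.

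Same-numbered day 2 and day 4 libraries had deviations correlated with r of 0.28, 0.22 and 0.14, and differently numbered ones of -0.20 to 0.00, so that the replicate numbers were taken to pair the libraries, a hint from the data and not from the labels. The study's design has no block, and the fit with it is given where it changes a call. Sampling error of the fragments is part of the spread between replicates.

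The 44 gene lists (1457 genes, 1226 tested) and the genes were chosen with earlier results of these data known. The genes named are Pou3f2, Myt1l, Per1 and Per2, preset anchor genes, in each list up to 6 called genes with the largest change, or the 2 with the smallest p where fewer than 2 were called, the 15 called genes in each direction with the largest change, no overlap of days and at least 1 FPKM, the 5 most abundant called genes in each direction, and the 3 smallest p of each difference between genotypes. Genes of this rule that were not called are given mostly by the counts of their lists, and any other gene is said to have been chosen after its values were seen. 1 gene of the rule is not reported here. Promoter sequences came from a RefSeq table on GRCm38.p6, and 10352 of 14930 symbols of tested genes matched.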

Additional observations from a re-analysis of the deposited data

How the results depend on the processing

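The 206 genes higher and 158 lower became 411 and 319 with the replicate block and 705 and 336 with the block in a fit of the 6 libraries alone. The genes called lower numbered 376 after rescaling to a common sum and 304 with no minimum fold change, and voom called 358 genes higher. Leaving out 1 of the 6 libraries gave 84 to 175 genes higher and 41 to 178 lower. Of the 14932-gene differences between genotypes, 0 were called in each fit that left out 1 library. Without the filter on low genes, 4 were called against WT and 14 against the Per2-/- label. The 4 were Mir130a, Igkv3-1, Gm4974 and Gm36079, chosen after their values were seen. They averaged 0.083, 0.025, 0.010 and 0.0099 FPKM over all 27 libraries, and the 14 ran from 0.0099 to 0.21 FPKM, all near the floor. The cause of these shifts in the counts was not tested. Of 110 called genes named here, 45 were called in all 6 fits that left out 1 library, and all 110 kept their direction. The change of Per1 itself was -0.036 after rescaling, and without 1 library ran from -0.016 (without day 2 replicate 3) to 0.139, not called in any fit.

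Among the genes named, the block ended the calls of Mir154 and Parm1 and added 9, all given with their blocked value, and it changed no other call. Rescaling ended those of Dab2, Ebf1, Gsn, Lgals3, Oas2, Psmb10 and Selenop. A pseudocount of 0.01 ended 24, among them Brsk2, Scg3, Scrt1, Snai3, Sstr1 and Col6a6, no filter on low genes ended 27, voom 9, and a fit of the 6 libraries alone 39, among them Gadd45g, Acvrl1, Srrm4 and BC046251. A pseudocount of 1 ended 5. A filter of at least 1 FPKM ended 1 and left 18 called genes out of the test, namely BC046251, Bsn, Cacng4, Chrnb2, Col6a6, Elavl4, Gria2, Grin1, Kcnc1, Mapt, Mir154, Neurod6, Pcsk2, Scrt1, Slit1, Snai3, Snap25 and Vgf. Calls were also added: Adgre1, Gm22281, Map2 and Ms4a7 with a pseudocount of 1 and with voom, Acta1, Adgre1, Csf1r, Map2, Ms4a7 and Pou3f2 in the fit of the 6 libraries alone, and Cald1, Cdk1, Gm22281 and Mki67 after rescaling. Rescaling turned the list medians of axon guidance (0.10 to -0.02), lysosome (0.08 to -0.05), the core clock (0.07 to -0.05) and ribosomal proteins (0.09 to -0.04). Neuronal splicing genes called higher went from 4 to 2 in the fit of the 6 libraries alone, and CDK inhibitors and p53 targets called lower from 3 to 1 there and with no filter, and to 5 after rescaling or with no minimum fold change. Depth limits genes of few fragments such as Mir154, Mir665 and Gm22281.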
